A study of Drosophila melanogaster with 9 samples.

Results

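The Cyp4d and Cyp4p genes are 9 cytochrome P450 genes of Drosophila melanogaster, 6 of the Cyp4d subfamily (Cyp4d1, Cyp4d2, Cyp4d8, Cyp4d14, Cyp4d20 and Cyp4d21) and 3 of the Cyp4p subfamily (Cyp4p1, Cyp4p2 and Cyp4p3), among 10844 genes named on the array. They were chosen by name from the array's annotation, and each had 1 probe set that is annotated to no other gene. The subfamilies were picked after their changes on these arrays were known, so the changes of the 9 genes are given as a description, without p-values. The array measured RNA from midguts of third-instar larvae of the W1118 strain, with 3 arrays per group and a pool of 50 midguts per array. WGA larvae were 108 h old (a range that ended at 110 h for replicate 1) when they were given food with 1% wheat germ agglutinin, a chitin-binding plant lectin, for 12 h. Starved larvae were 108 h old when food was withdrawn for 12 h. Control larvae had normal food for 12 h and are labelled with an age of 120 h, and where the labels' ages differ, age and treatment cannot be told apart. The labels give no date or batch, and the replicate numbers do not say whether pools were dissected together. The p-values given for other genes measure the spread between these pools.

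Cytochromes P450 are haem-containing monooxygenases. Most insect P450s sit in the membrane of the endoplasmic reticulum, where NADPH-cytochrome P450 reductase, sometimes with cytochrome b5, passes them the electrons they need. The CYP4 family is best known from vertebrates for hydroxylating fatty acids at the omega end, a step whose products can be oxidised further by fatty aldehyde dehydrogenase and shortened in peroxisomes. The insect midgut is a main site of P450 expression, for the metabolism of food lipids as well as of plant compounds.

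Values are the deposited array signals, an intensity per probe set with no unit. Changes are differences of log2 values after quantile normalisation, on the scale log2(signal + 1.72), so they understate the changes of dim probe sets. A probe set was tested if at least 3 of the 9 arrays had a normalised log2 value above 2.79, the level of the 40th percentile of signals, and 9675 probe sets passed. A change was called where limma's adjusted p over those probe sets was under 0.05. Probe sets differ in how strongly they bind, so the level of a gene is set only against its own level on other arrays. The summed signal of an array ranged from 909028 to 1457246. All 8 midgut markers with a probe set, among them mex1 and alphaTry, passed the filter, while none of the 3 neuron markers did. Markers of other cell types and tissues passed too. These were 8 of 8 enteroendocrine, 7 of 7 visceral muscle, 6 of 7 Malpighian tubule, 4 of 5 fat body, 3 of 4 trachea, 3 of 6 hemocyte and 1 of 2 oenocyte markers. Passing the filter therefore does not show that the tissue was pure midgut. In RNA from whole pooled midguts, fewer cells of a type and less RNA per cell cannot be told apart.

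Cyp4d1, Cyp4d2 and Cyp4d14 were lower and Cyp4p1 was higher in WGA midguts than in control midguts, each by over 2 log2 units. Starved midguts also had a large fall of Cyp4d14, showed a far smaller fall of Cyp4d1, and did not share the rise of Cyp4p1. Cyp4d14 was dim in both WGA and starved midguts, which limits a comparison of the sizes of its falls. Cyp4d8 fell by less than Cyp4d1, Cyp4d2 and Cyp4d14 with WGA. Cyp4d20, Cyp4d21, Cyp4p2 and Cyp4p3 were near the filter level or under it in every group.

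Cyp4d1 (probe set 143572_at) had signals of 112.4, 88.1 and 77.1 in WGA midguts, 379.6, 343.4 and 325.7 in starved midguts, and 806.0, 843.9 and 572.0 in control midguts. The 3 groups did not overlap, with WGA lowest and control highest. The gene was lower with WGA than in controls by a log2 difference of -3.31 ± 0.17 (SE, n = 3 arrays per group), which is 9.88-fold lower. It was lower in starved midguts than in controls by a log2 difference of -0.79 ± 0.17, which is 1.73-fold lower. WGA midguts were also below starved midguts, with a difference of -2.51 ± 0.17 and a 95% interval from -2.89 to -2.14. With the arrays' own scaling that difference was -1.91. The fall with starvation lost its call when the spread was moderated without a trend on signal level, and the WGA calls held in all 20 alternative analyses.

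Cyp4d2 (152267_at) had signals of 55.3, 48.2 and 69.6 in WGA midguts, 155.0, 176.9 and 349.1 in starved midguts, and 273.8, 427.2 and 314.3 in control midguts. All WGA arrays lay under every other array, while starved and control arrays overlapped. The log2 difference between WGA and control midguts was -2.91 ± 0.23, which is 7.51-fold lower, and that between WGA and starved midguts was -2.46 ± 0.23, or -1.87 with the arrays' own scaling. Between starved and control midguts the difference was -0.45 ± 0.23, with a 95% interval from -0.94 to 0.04, and was not called. Median centring of the arrays gave -0.80 for that difference and called it. Starvation replicate 3 was the highest starved array and lay above 2 of the 3 control arrays in deposited signal.

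Cyp4d14 (144001_at) had signals of 9.07, 9.18 and 12.9 in WGA midguts, 5.15, 8.84 and 25.3 in starved midguts, and 110.3, 128.2 and 94.5 in control midguts. Every WGA and every starved array was far under the lowest control array, and the WGA and starved arrays overlapped. The log2 difference was -3.59 ± 0.37 for WGA against control, 12.0-fold lower, and -3.29 ± 0.37 for starvation against control, 9.77-fold lower. These sizes depend on the offset added to the signals. The WGA and starved arrays were dim, down to a log2 level of 2.81 in starved midguts, against the filter level of 2.79. Changes are understated there, so how alike the WGA and starvation falls were cannot be judged closely. Over the 20 alternatives the differences ranged from -3.83 to -2.49 and from -3.76 to -2.31, with the smallest sizes at an offset of 16, and the calls held. Between WGA and starved midguts it was -0.30 ± 0.37, and the 95% interval from -1.11 to 0.51 leaves room for a difference in either direction. Starved arrays varied more than the others, with an SD of 0.91 log2 units against 0.31 in WGA and 0.10 in control midguts. Without starvation replicate 3, the brightest starved array, the difference between starved and control midguts was -3.76 and that between WGA and starved midguts was 0.16, still not called. Of the 4 tested Cyp4d genes this one alone had a fall with starvation of over 1 log2 unit in the main fit. Over the 20 alternatives the starvation difference of Cyp4d1 ranged from -1.22 to -0.61.

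Cyp4d8 (152865_at) had signals of 90.4, 82.9 and 130.7 in WGA midguts, 65.6, 89.9 and 151.6 in starved midguts, and 130.8, 192.4 and 106.6 in control midguts. The deposited signals of the groups overlapped. After normalisation the WGA arrays lay under the control arrays, at 6.30 ± 0.41 against 7.27 ± 0.12 (log2 level, SD, n = 3 each). The fall of 0.97 ± 0.25 log2 units with WGA was called, but 5 of the 20 alternatives lost the call. These were the arrays' own scaling (log2 difference -0.48), moderation without a trend, and the fits without WGA replicate 1 (-0.81), without WGA replicate 2 (-0.92) or without control replicate 2 (-0.92). Starved midguts differed from controls by -0.45 ± 0.25, which was not called. The difference between WGA and starved midguts was -0.53 ± 0.25, called only without starvation replicate 1, where it was -0.81.

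Cyp4d20 (148049_at) stayed dim on all 9 arrays, with signals of 3.45, 1.14 and 2.83 in WGA midguts, 2.36, 1.81 and 2.46 in starved midguts, and 2.27, 3.89 and 2.19 in control midguts. Cyp4d21 (152958_at), also known as sxe1, had signals of 0.244, 1.16 and 0.606 in WGA midguts, 3.55, 0.581 and 5.05 in starved midguts, and 1.78, 6.20 and 2.0 in control midguts. Neither passed the filter. No array of Cyp4d20 and 1 control array of Cyp4d21 lay above the filter level, so no difference between groups is given for them.

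Cyp4p1 (143782_at) had signals of 776.9, 692.4 and 675.8 in WGA midguts, 74.1, 64.0 and 117.1 in starved midguts, and 88.3, 178.4 and 130.7 in control midguts. Every WGA array was above every starved and control array, and starved and control arrays overlapped. WGA arrays lay close together, at a normalised log2 level of 9.29 ± 0.05, against 6.56 ± 0.20 in starved and 7.13 ± 0.31 in control midguts (SD, n = 3 each). The gene rose by a log2 difference of 2.16 ± 0.18 with WGA against control, 4.46-fold, and stood 2.73 ± 0.18 above starved midguts, 6.62-fold. These 2 differences were called in all 20 alternatives, with ranges of 1.95 to 2.47 and 2.55 to 3.09. The difference of -0.57 ± 0.18 between starved and control midguts was called too, but 13 of 20 alternatives lost the call. Among these were the arrays' own scaling (-0.62), cyclic loess (-0.50) and the fits that left out any WGA array, starvation replicate 1 (-0.52) or 2 (-0.52), or control replicate 2 (-0.50) or 3 (-0.45). Leaving out a WGA array kept the difference at -0.57, while normalisation, shared spread and p-value adjustment were redone without it.

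Cyp4p2 (152833_at) had signals of 6.80, 7.90 and 14.8 in WGA midguts, 7.21, 10.4 and 2.51 in starved midguts, and 5.45, 12.9 and 5.11 in control midguts. The groups overlapped in all 3 comparisons. The log2 difference was -0.07 ± 0.50 for WGA against control, with a 95% interval from -1.14 to 1.00, and -0.33 ± 0.50 for starvation against control. A change of the size seen for Cyp4p1 with WGA lies outside the interval for WGA against control. Cyp4p2 was near the filter level in every group, where changes are understated, so these values cannot exclude such a change of its RNA. Cyp4p3 (146873_at) had signals of 5.71, 1.82 and 1.45 in WGA midguts, 3.86, 4.64 and 1.75 in starved midguts, and 5.35, 9.19 and 5.29 in control midguts. It passed the filter only through its 3 control arrays and 1 starved array, so its direction was partly set by the filter. Its log2 difference was -1.21 ± 0.49 for WGA against control, called only by the moderation without a trend, and -0.84 ± 0.49 for starvation against control, not called.

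**Figure D1:**
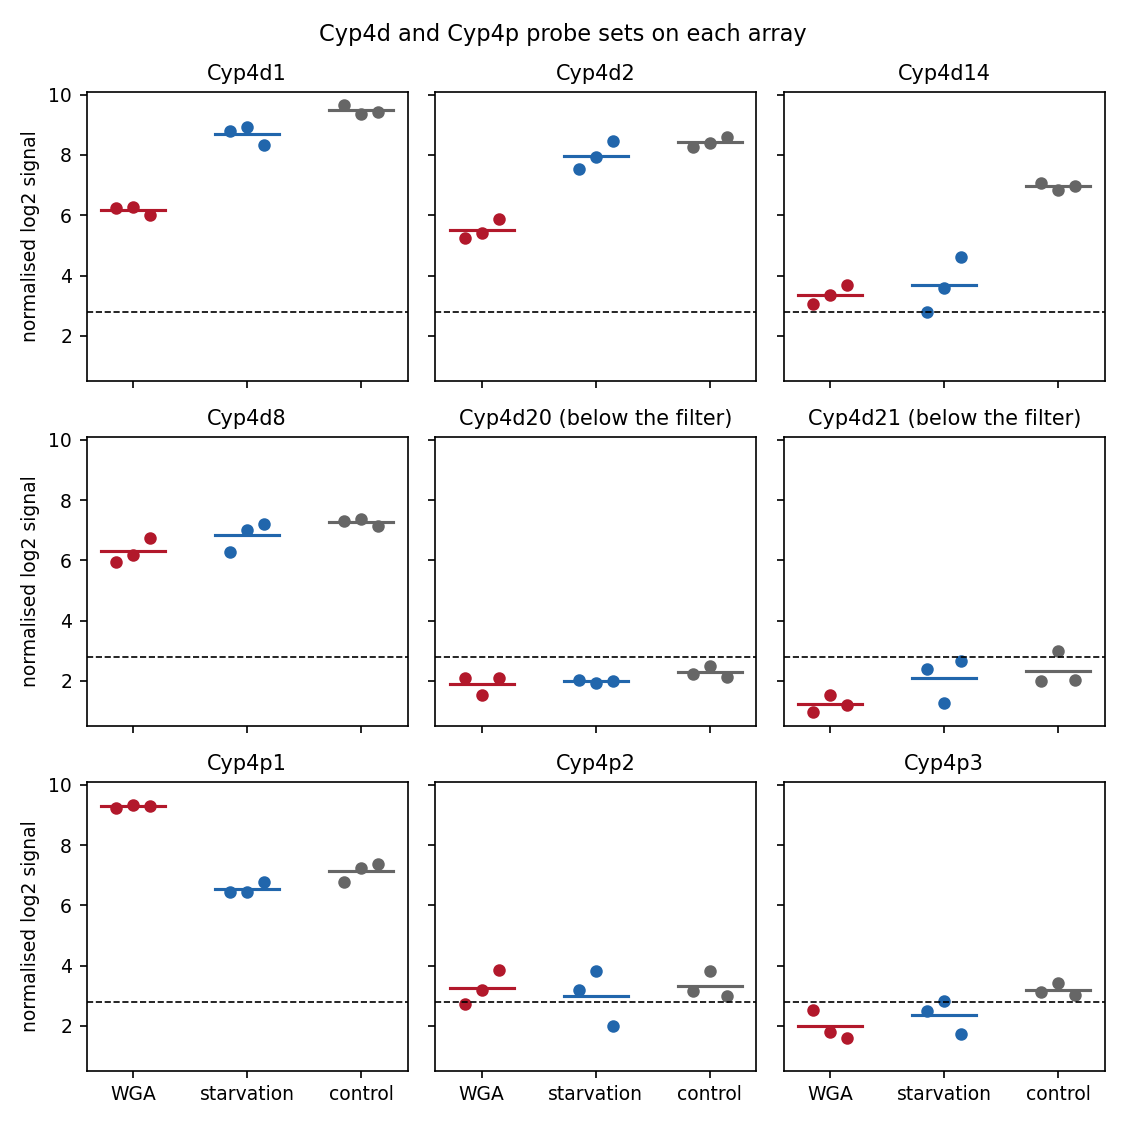
Normalised log2 signal (vertical axis) of each of the 9 genes on each array, with WGA, starvation and control from left to right. Points are arrays, solid bars are group means, and the dashed line is the filter level of 2.79. Cyp4d1, Cyp4d2 and Cyp4d14 are lowest in WGA midguts by group mean, Cyp4p1 is highest there, and Cyp4d20, Cyp4d21, Cyp4p2 and Cyp4p3 lie near the dashed line or under it.

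Of the 7 tested genes, 4 were called lower and 1 higher in WGA than in control midguts, beside 10.1% of all tested probe sets called lower and 11.6% called higher. Against control, starved midguts had 3 of the 7 called lower and 0 higher, beside 7.09% lower and 8.12% higher of all tested probe sets. WGA against starved midguts gave 2 lower and 1 higher, beside 5.57% lower and 5.94% higher. The subfamilies were picked from these same contrasts, and nothing is read from the counts. The gene lists below were also chosen with earlier results of these arrays known. Their counts and p-values are a description too, and the same shares of all tested probe sets stand beside them. The first pair of comparisons share the control arrays and all 3 share groups, so their values are set side by side only.

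**Figure D2:**
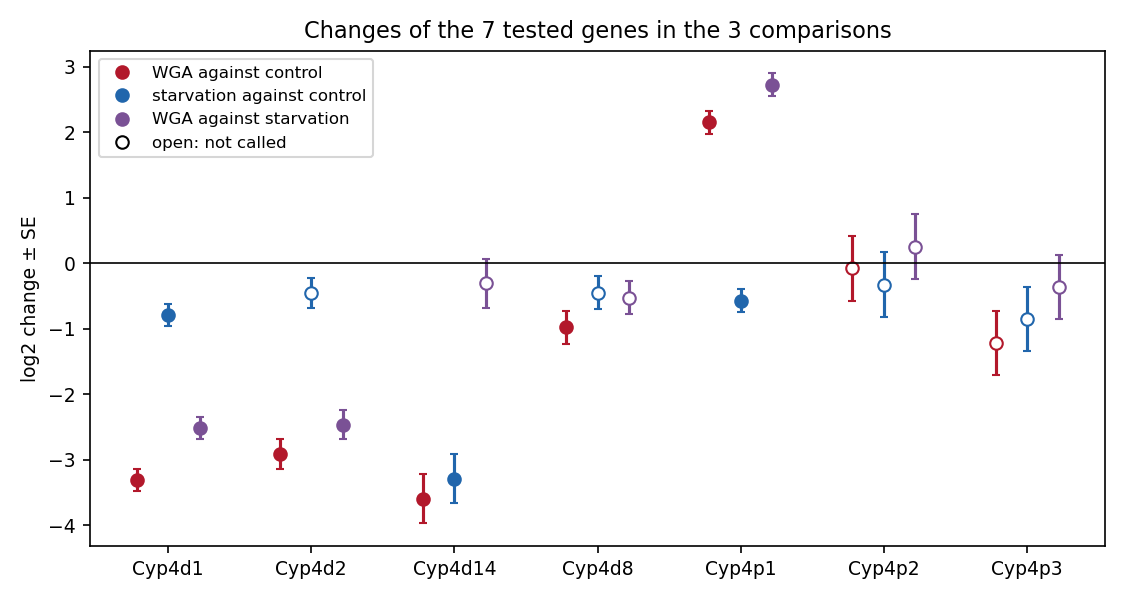
Log2 change with its SE (vertical axis) of the 7 tested genes, with WGA and then starvation set against control, and WGA set against starvation. Filled points were called and open points were not. Cyp4d14 has changes of -3.59 and -3.29 in the 2 comparisons with control, while Cyp4d1 and Cyp4d2 have WGA changes of -3.31 and -2.91 with starvation changes of -0.79 and -0.45, and Cyp4p1 alone is far above 0.

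The subfamilies were picked with these changes known, so the ranks below follow in part from that choice and are a description. Among the 65 tested P450 genes, Cyp4d14 had the largest fall with WGA, Cyp4d1 the second largest and Cyp4d2 the fourth largest. They ranked 29, 34 and 49 among all 9675 probe sets by size of fall. The order among them depends on the offset: at an offset of 16, Cyp4d1 had the largest P450 fall (-3.07), Cyp4d2 the second largest (-2.57) and Cyp4d14 the third largest (-2.49). Over all 20 alternatives Cyp4d14 and Cyp4d1 stayed within the first 3 P450 genes and Cyp4d2 within the first 5. Cyp4p1 had the second largest P450 rise with WGA against control, and against starvation the largest, where it ranked 20 among all probe sets. Cyp4d14 had the largest P450 fall in starved midguts and ranked 16 among all probe sets, while Cyp4d1 ranked 1221. Over the 20 alternatives Cyp4d14 stayed within the first 2 P450 genes there, and Cyp4p1 within the first 3 for its rise against control and at the top against starvation. The 58 tested P450 genes outside the Cyp4d and Cyp4p subfamilies moved in both directions. With WGA against control 15 of them were called lower and 10 higher, with a median of -0.22. With starvation 9 were lower and 11 higher, with a median of 0.24. WGA against starved midguts gave 14 lower and 4 higher, with a median of -0.34.

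The other Cyp4 genes on the list were 13, of which 8 were tested. With WGA against control, 1 was called lower and 2 higher. Cyp4ac3 rose by 1.53 ± 0.25 log2 units (limma adjusted p = 5.79e-04), a call that all 20 alternatives kept. Cyp4ae1, the gene next to Cyp4d2, rose by 2.0 ± 0.56 (limma adjusted p = 0.0201), and lost its call without WGA replicate 1 or 2 or control replicate 1 or 3, where its change was 1.52 to 1.99. Cyp4ad1 fell by 1.15 ± 0.27 (limma adjusted p = 0.00752), lost with the arrays' own scaling at -0.63. In starved midguts 1 of the 8 was called lower and 1 higher. Cyp4ac3 rose by 2.42 ± 0.25 there (limma adjusted p = 2.76e-05). Cyp4ad1 fell by 0.93 ± 0.27 (limma adjusted p = 0.0335), and 8 alternatives lost the call, among them the fits without starvation replicate 1 or 2 or any control array (-1.0 to -0.85). So in these data the Cyp4 family held genes that moved opposite to Cyp4d1, Cyp4d2 and Cyp4d14. WGA against starvation called 2 of the 8 lower, Cyp4ac1 at -0.78 ± 0.20 and Cyp4ac3 at -0.89 ± 0.25 (limma adjusted p = 0.0215 and 0.0354). These calls were lost with the arrays' own scaling (-0.26 and -0.36) and without WGA replicate 1 or 2 or starvation replicate 2 or 3, where the changes lay from -0.79 to -0.71 and, with control replicate 2 also counted for Cyp4ac3, from -0.95 to -0.70.

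Cyp4d1, Cyp4d14 and Cyp4d2 stand near each other on the X chromosome and the Cyp4p genes stand side by side on chromosome arm 2R, by the gene order of RefSeq's Release 6 annotation. On the X, 3 genes lie between Cyp4d1 and Cyp4d14 and 2 between Cyp4d14 and Cyp4d2. No gene lies between Cyp4p2 and Cyp4p1 or between Cyp4p1 and Cyp4p3. Cyp4d8 and Cyp4d20 are on 3L and Cyp4d21 on 2L. The rise of Cyp4p1 with WGA was not seen for the genes on either side of it, Cyp4p2 and Cyp4p3, whose changes were -0.07 ± 0.50 and -1.21 ± 0.49. Both of these probe sets were dim, near the filter level or under it, and the direction of Cyp4p3 was partly set by the filter. Their values therefore cannot decide whether Cyp4p2 and Cyp4p3 shared the rise.

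The genes within 3 places of a Cyp4d or Cyp4p gene numbered 35, of which 17 had a probe set and 9 were tested. With WGA against control 1 was called lower and 3 higher. ND-B14.5A, which encodes a subunit of mitochondrial complex I and lies just before Cyp4d14, fell by 1.44 ± 0.16 log2 units with WGA (limma adjusted p = 1.83e-05) and by 0.93 ± 0.16 with starvation (limma adjusted p = 0.00118). All 20 alternatives kept these calls. Cyp4ae1, on the other side of Cyp4d2, rose by 2.0 ± 0.56 with WGA as above. Genes of the X cluster thus moved in opposite directions with WGA.

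CG16762, next to Cyp4d20, rose by 1.64 ± 0.51 with WGA (limma adjusted p = 0.0338) and by 2.65 ± 0.51 with starvation (limma adjusted p = 0.0029). Pkn, which encodes protein kinase N and lies near Cyp4p3, rose by 0.95 ± 0.29 with WGA (limma adjusted p = 0.0318). The WGA call of CG16762 was lost without any WGA array or without control replicate 2 or 3 (1.19 to 1.82), and that of Pkn without any WGA array or without control replicate 1 or 2 (0.80 to 1.01). With starvation 1 of the 9 was lower and 1 higher. WGA against starvation called 1 of the 9, bcn92, which was higher by 1.64 ± 0.35 (limma adjusted p = 0.00681).

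**Figure D3:**
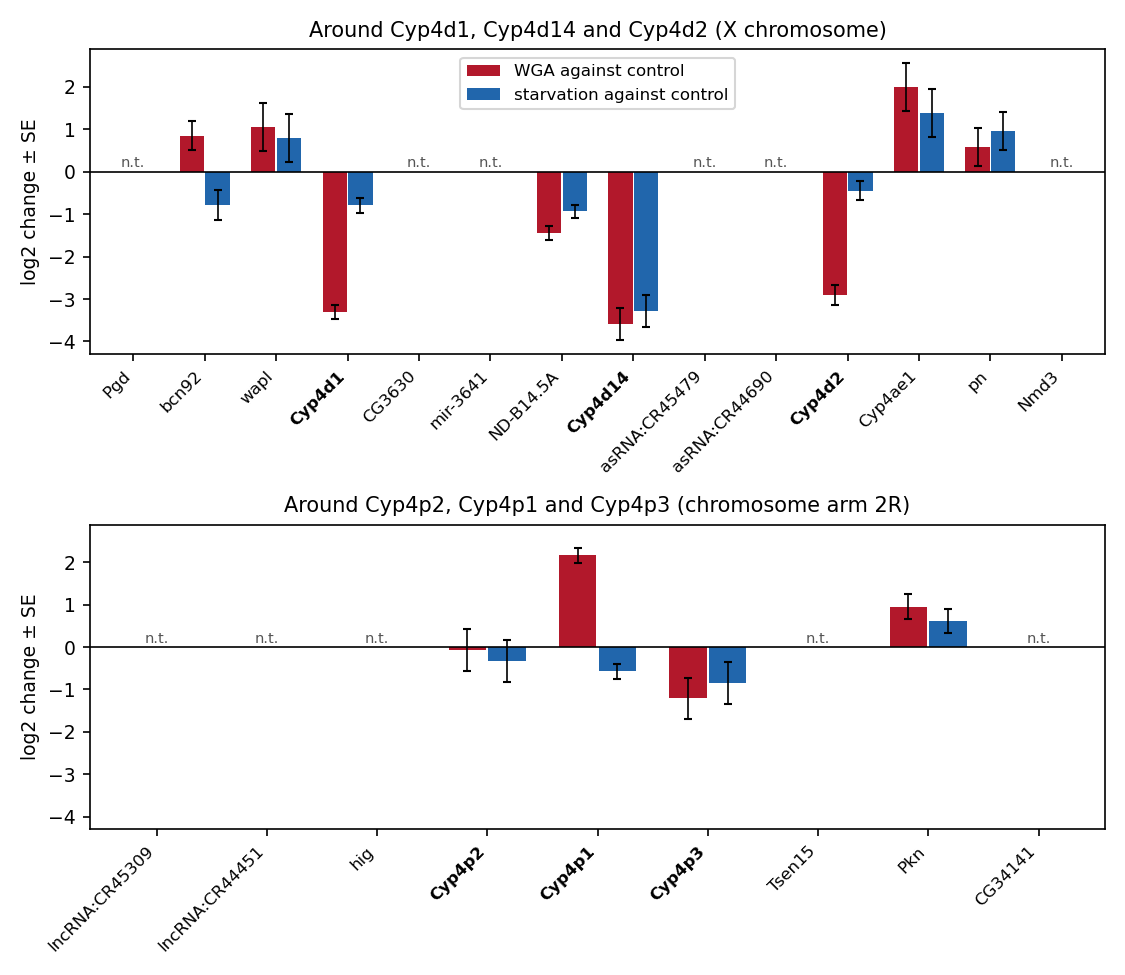
Log2 change with its SE (vertical axis) of genes in chromosome order, from 3 genes before to 3 genes after the X-linked Cyp4d genes (upper panel) and the Cyp4p genes (lower panel), for WGA against control and starvation against control. Genes marked n.t. were not tested, and equal steps on the horizontal axis are genes, not distances. On the X, Cyp4d1, ND-B14.5A, Cyp4d14 and Cyp4d2 fall with WGA and Cyp4ae1 rises, and on 2R the rise of 2.16 is at Cyp4p1.

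The lists that follow hold redox partner and haem genes, peroxisomal and omega oxidation genes, and gut and detoxification regulators, read from the same arrays. A link of these genes to the Cyp4d and Cyp4p enzymes was not tested. The lists were chosen with earlier results of these arrays known, so their counts and p-values are a description. Of all tested probe sets, 10.1% were called lower and 11.6% higher with WGA against control, and 7.09% and 8.12% with starvation. WGA against starvation gave 5.57% lower and 5.94% higher. The redox partner and haem list had 15 genes, of which 11 had a probe set and were tested. No gene of NADPH-cytochrome P450 reductase was among these 11. With WGA against control 0 of the 11 were called lower and 4 higher. Alas, which encodes the enzyme of the first step of haem synthesis, rose by 1.06 ± 0.18 log2 units (limma adjusted p = 7.58e-04). Urod, a later enzyme of that pathway, rose by 0.97 ± 0.19, and the ferredoxin gene Fdx2 by 0.99 ± 0.15 (limma adjusted p = 0.00187 and 3.52e-04). These 3 calls were kept by all 20 alternatives. Cyt-b5, which encodes cytochrome b5, rose by 0.53 ± 0.17 (limma adjusted p = 0.0417), a call that 11 alternatives lost, among them the arrays' own scaling and the fits without any WGA array, starvation replicate 2 or control replicate 2 or 3 (0.39 to 0.60).

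In starved midguts 1 of the 11 was called lower and 1 higher. Fdx2 rose by 1.5 ± 0.15 (limma adjusted p = 2.43e-05), and Pbgs, the enzyme of the second step of haem synthesis, fell by 0.65 ± 0.17 (limma adjusted p = 0.0169), lost without starvation replicate 2 (-0.65). WGA against starvation called 2 lower and 3 higher. Urod was higher by 1.32 ± 0.19, Cyt-b5 by 1.02 ± 0.17 and Pbgs by 0.89 ± 0.17 (limma adjusted p = 3.07e-04, 0.00138 and 0.00271), in all 20 alternatives. Cyt-b5-r, a cytochrome b5-related gene, was lower by a log2 difference of -1.33 ± 0.31 (limma adjusted p = 0.011), lost with the arrays' own scaling (-0.75) and without WGA replicate 3 or starvation replicate 1 or 2 (-1.27 to -1.05). The other gene called lower was Fdx2, at -0.51 ± 0.15 (limma adjusted p = 0.0477), named here for its part in the count, and 12 alternatives lost its call, 5 of them fits without WGA replicate 1 or 3, starvation replicate 2 or 3 or control replicate 2 (-0.57 to -0.39).

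The peroxisomal and omega oxidation list had 17 tested genes, of which 10 were called lower and 1 higher with WGA against control. Its median change was -0.79. Aldh-III, which encodes fatty aldehyde dehydrogenase, fell by 2.57 ± 0.19 log2 units (limma adjusted p = 4.86e-07). ScpX, a thiolase with a sterol carrier domain, fell by 2.44 ± 0.24, and the acyl-CoA oxidase genes Acox3 and Acox57D-p changed by -2.19 ± 0.15 and -1.76 ± 0.25 (limma adjusted p = 7.97e-06, 2.65e-07 and 1.48e-04). All 20 alternatives kept these 4 calls. The gene that rose was Cat, which encodes catalase, by 0.74 ± 0.13 (limma adjusted p = 9.23e-04), a call lost with median centring (0.29). The arrays' own scaling left 5 of the 17 lower and 1 higher.

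In starved midguts 4 of the 17 were called lower and 1 higher, with a median of -0.26. ScpX fell by 1.60 ± 0.24, Aldh-III by 1.52 ± 0.19 and Pex19, a peroxisomal import factor, by 1.34 ± 0.22 (limma adjusted p = 5.10e-04, 1.00e-04 and 8.93e-04). Cat rose by 1.21 ± 0.13 (limma adjusted p = 3.20e-05). Each of these starvation calls held in all 20 alternatives. WGA against starvation called 9 of the 17 lower and 0 higher, but with the arrays' own scaling none was called lower and 1 higher. The largest were Pex13, another import factor, at -1.35 ± 0.16, Acox57D-p at -1.16 ± 0.25, Aldh-III at -1.04 ± 0.19 and Acox3 at -1.04 ± 0.15 (limma adjusted p = 5.50e-05, 0.00651, 0.00218 and 3.59e-04). With the arrays' own scaling these 4 differences were -0.75, -0.69, -0.46 and -0.51.

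**Figure D4:**
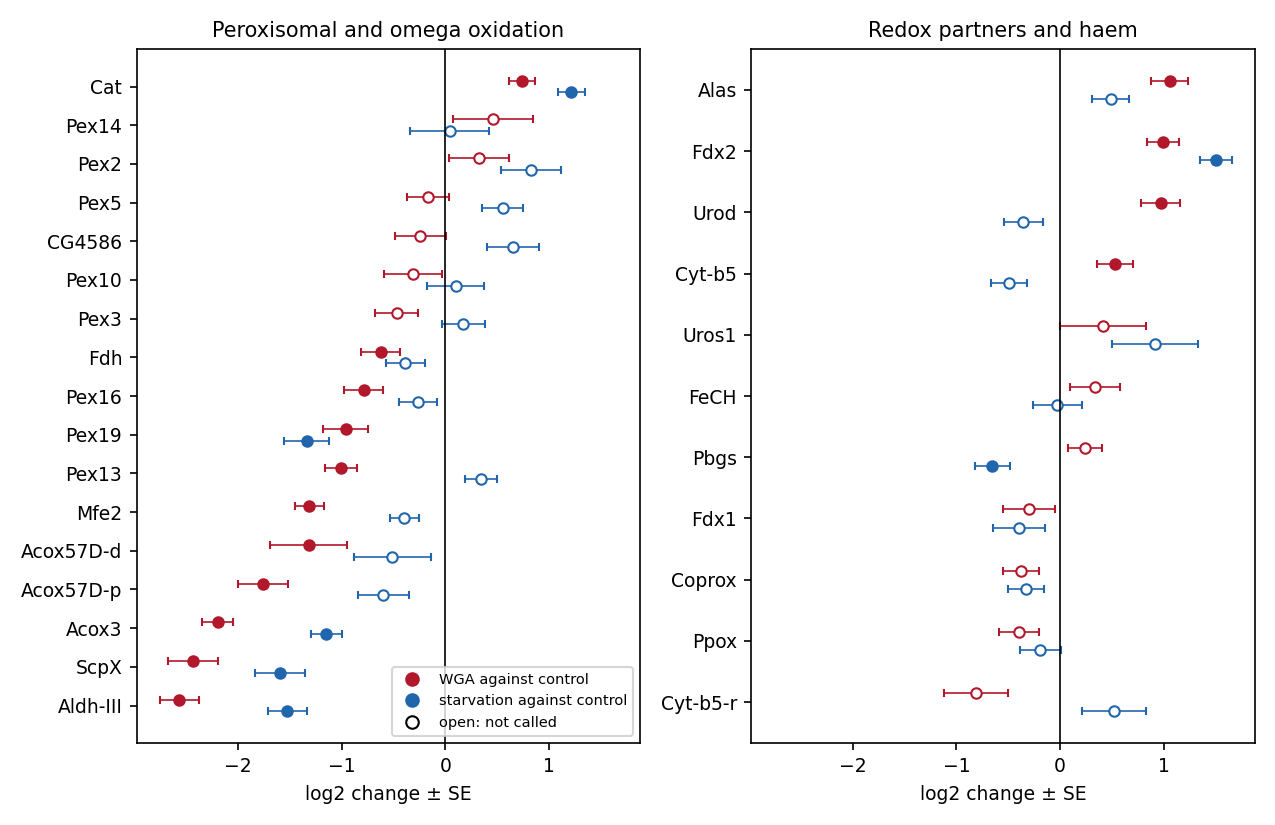
Log2 change with its SE (horizontal axis) of the tested genes of the peroxisomal and omega oxidation list (left) and of the redox partner and haem list (right), for WGA against control and starvation against control. Filled points were called and open points were not. With WGA, Aldh-III, ScpX and Acox3 are lowest on the left, with changes from -2.57 to -2.19, and Alas, Fdx2 and Urod are the highest on the right, near 1.

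The list of gut and detoxification regulators had 13 tested genes, of which 0 were called lower and 2 higher with WGA against control. Hr96, a nuclear receptor known for regulating genes of xenobiotic and lipid metabolism in the fly, rose by 2.29 ± 0.25 log2 units (limma adjusted p = 1.72e-05). Its change in starved midguts was -0.13 ± 0.25, and WGA midguts stood 2.42 ± 0.25 above starved midguts (limma adjusted p = 2.20e-05). The 2 calls held in all 20 alternatives. By these values Hr96, like Cyp4p1, was higher with WGA than in starved and in control midguts. maf-S, a partner of the stress regulator cnc, rose by 0.70 ± 0.20 with WGA (limma adjusted p = 0.0239), lost without any WGA array or without control replicate 2 or 3 (0.49 to 0.71).

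In starved midguts 0 regulators were called lower and 4 higher. These were tgo, the partner of several bHLH-PAS factors, by 1.83 ± 0.50, maf-S by 1.15 ± 0.20, Hnf4, a receptor known for driving fatty acid oxidation genes in fasted larvae, by 1.08 ± 0.18, and GATAe, a midgut GATA factor, by 0.90 ± 0.21 (limma adjusted p = 0.0254, 0.0015, 0.00108 and 0.0119). The call of tgo was lost without starvation replicate 1 or 3 or control replicate 1 or 2 (1.39 to 1.77), and that of GATAe with the arrays' own scaling. WGA against starvation called 1 lower, Hnf4 at -0.62 ± 0.18 (limma adjusted p = 0.0422), which 10 alternatives lost, including the arrays' own scaling (-0.04) and the fits without any WGA or starvation array or without control replicate 2 (-0.66 to -0.54). The arrays' own scaling called 6 of the 13 higher with WGA against control.

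By Pearson's r of the normalised log2 values over the 9 arrays, the genes whose pattern was most like that of Cyp4d1 were Surf4, zetaTry and CG14989, with r of 0.986, 0.985 and 0.980. For Cyp4d2 they were CG7970, CG5254 and CG31937, with r of 0.993, 0.990 and 0.990. For Cyp4d14 they were tilB, CG1532 and AANATL6, with r of 0.987, 0.987 and 0.977. These 9 points fall into 3 groups, so a value near 1 mostly says that the group means lie in the same order and proportion. Cyp4p1 was most like CG12112, CG15210 and GlcAT-S, at 0.988, 0.988 and 0.979. Cyp4d8 was most like CG10513, kumpel and the P450 gene Cyp6a16, at 0.971, 0.965 and 0.952. The dim genes Cyp4p2 and Cyp4p3 reached at most 0.915 (CG34404) and 0.937 (Nil).

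The summed signal of the Malpighian tubule markers was lower in WGA and starved than in control midguts. The list had 7 of 10 genes with a probe set and 6 tested, and its summed normalised signal was 207 to 255 in WGA midguts, 198 to 357 in starved midguts and 451 to 515 in control midguts. With WGA 1 of the 6 was called lower, the chloride channel gene ClC-a at -1.86 ± 0.41 (limma adjusted p = 0.00444), and with starvation 2 were, Oatp58Dc at -2.08 ± 0.48 and ClC-a at -1.32 ± 0.41 (limma adjusted p = 0.0102 and 0.0422). The call of ClC-a with starvation was lost in 9 alternatives, among them the fits without WGA replicate 3, starvation replicate 1 or 3 or any control array (-1.44 to -0.93). The list's other values ran in both directions. With WGA, Irk1 was at 0.27 ± 0.25 and Irk2, Lkr, Oatp58Dc and ZnT35C lay from -1.30 to -0.64, none called. With starvation ZnT35C was at 0.11 ± 0.27 and Irk1, Irk2 and Lkr lay from -0.53 to -0.23, none called. For WGA against starvation 0 of the 6 were called. Irk1 was at 0.76 ± 0.25 and Oatp58Dc at 0.78 ± 0.48, while Irk2, ClC-a, Lkr and ZnT35C lay from -0.75 to -0.54. All 8 enteroendocrine markers with a probe set were tested. Their normalised sums were 121 to 138 in WGA, 160 to 176 in starved and 188 to 239 in control midguts. Their deposited sums, 138 to 190, 128 to 195 and 155 to 204 in that order, overlapped. With WGA 2 of the 8 were called lower, AstC at -0.91 ± 0.20 and CCHa2 at -0.96 ± 0.28 (limma adjusted p = 0.00445 and 0.0235). The arrays' own scaling lost these 2 calls, and that of CCHa2 was also lost without WGA replicate 1 or 2 or control replicate 1 or 3 (-0.96 to -0.77). Of the rest with WGA against control, NPF was at 0.76 ± 0.45 and Mip, Dh31, CCHa1, pros and Orcokinin lay from -0.86 to -0.09, none called. The summed normalised signal of the midgut markers was 1920 to 1947 in WGA midguts, 2130 to 3287 in starved midguts and 2337 to 3364 in control midguts. In deposited signal the midgut sums were 2096 to 2610, 1749 to 3336 and 1916 to 3543 in that order, and overlapped. The ratio of the 3′ to the 5′ control probe sets of eIF-4a, which reflects RNA integrity and labelling, was 2.75 to 3.52 with WGA, 2.83 to 3.56 with starvation and 3.60 to 5.71 in controls. That of GAPDH was 2.22 to 2.41 with WGA, 2.92 to 3.35 with starvation and 1.97 to 2.92 in controls, and that of actin 1.17 to 1.49 with WGA, 1.44 to 1.51 with starvation and 1.44 to 2.36 in controls, so control arrays stood apart from the others by eIF-4a and not by these. The part of these differences in the changes of the Cyp4d and Cyp4p genes was not tested. The median of all tested probe sets was 0.47 for WGA against control, 0.12 for starvation against control and 0.35 for WGA against starvation when the arrays' own scaling was kept. That scaling called 460 probe sets lower and 2118 higher with WGA against control, where quantile normalisation called 975 and 1125. For WGA against starvation it called 179 lower and 1007 higher, where quantile normalisation called 539 and 575. Relative to its own median the WGA changes against control of Cyp4d1, Cyp4d2, Cyp4d14 and Cyp4p1 kept their directions.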

How the data were processed

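Per the labels' protocols, biotin-labelled total RNA from each pool was hybridised to 1 Affymetrix array. The authors deposited 1 intensity per probe set and array, a summarised signal, and the submitters' processing notes name GCOS. Its scaling and summary settings were not given in these sources, and signals ranged from 0.0520 to 12490.3. Of 14010 probe sets, 44 control probe sets were left out. By the platform annotation 12443 probe sets had 1 gene, 327 several and 1196 none, and 12394 of the first kind matched RefSeq's Release 6 gene table for current names. Genes were named only from probe sets of 1 gene, by the brightest tested probe set where a gene had several. Cross-hybridisation between the related Cyp4d genes, or between the related Cyp4p genes, was not tested.

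Signals were offset by 1.72 (their 20th percentile), taken to log2 and quantile-normalised. Probe sets with at least 3 arrays above the 40th percentile (signal 5.18) were fitted with limma 3.58.1 in R 4.3.3, with group means over all 9 arrays and eBayes with a trend, and Benjamini-Hochberg adjustment over the 9675 tested probe sets. The fit was tested on simulated data. The small number of arrays limits the precision.

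The 9 genes and the lists (other Cyp4 genes, redox partners and haem, peroxisomal and omega oxidation, regulators, markers of midgut, enteroendocrine cell, visceral muscle, fat body, Malpighian tubule, hemocyte, trachea, oenocyte and neuron) were chosen with earlier results of these data known. All 9 genes are named. From each list up to 4 called genes per comparison were named by size of change, and the 3 genes most like each tested Cyp4d or Cyp4p gene by Pearson's r. Names beyond that rule (Fdx2 against starvation, Cat with WGA, AstC and CCHa2) were added after their values were seen. The 20 alternatives covered scaling, offset, filter, moderation, array weights, a block for replicate number, the groups in the fit, and leaving out each array. Over probe sets, residuals correlated between arrays of the same number by -0.04 to 0.10, and between arrays of different number by -0.13 to 0.06. These ranges overlap, and the numbers were not used as pairs in the main fit. The block for replicate number called more probe sets in each comparison.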

Additional observations from a re-analysis of the deposited data

How the results depend on the processing

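With 3 arrays per group, dim probe sets such as Cyp4p2 and Cyp4p3 have SEs near 0.5 log2 units, and only large changes could be called there. Of the counts of called Cyp4d and Cyp4p genes, that of genes lower with starvation moved most, to 1 from 3 without the trend, and the others stayed within 1.5 times. Counts below are called genes of a list in either direction, and the cause of each shift was not tested. Against control with WGA, the arrays' own scaling gave 6 peroxisomal genes against 11 and 6 regulators against 2. Without the trend there was 1 regulator, and there were 2 genomic neighbours against 4. Leaving out an array gave 1 to 3 regulators and 1 to 4 neighbours. Against control with starvation, other Cyp4 genes numbered 1 against 2 with the arrays' own scaling, without the trend and with array weights, and 1 to 2 with an array left out. Redox and haem genes numbered 1 against 2 with the arrays' own scaling, without the trend and with only the groups compared, 4 with cyclic loess, and 1 to 3 with an array left out. For WGA against starvation, other Cyp4 genes numbered 0 against 2 with the arrays' own scaling, median centring and no trend, 1 without a filter, and 0 to 2 with an array left out. Peroxisomal genes numbered 1 against 9 with the arrays' own scaling, 5 without the trend, and 5 to 9 with an array left out. Regulators numbered 1 against 2 with the arrays' own scaling, median centring and no trend, and 1 to 2 with an array left out. Redox and haem genes numbered 3 against 5 without the trend and 3 to 5 with an array left out. Genomic neighbours numbered 2 against 1 without a filter, with the 60th percentile filter and with the replicate block, 3 with array weights, and 1 to 3 with an array left out. No other count of a list moved by over 1.5 times with the replicate block, which called 1046 probe sets lower and 1210 higher with WGA against control, where the fit without it called 975 and 1125. Over all tested probe sets, median centring called 815 lower and 583 higher with starvation against control (686 and 786 by quantile normalisation) and 424 and 699 for WGA against starvation (539 and 575). Without the trend 515 were higher with starvation and 345 lower for WGA against starvation. Without WGA replicate 2, 747 were higher with WGA against control (1125 with it) and 367 against starvation (575 with it). Without starvation replicate 2, 509 were higher with starvation (786 with it) and 357 lower for WGA against starvation (539 with it).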

Other observations

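Midgut markers moved in both directions. With WGA against control, 2 of the 8 tested were called higher and 2 lower. The enterocyte gene mex1 rose by 1.05 ± 0.18 log2 units and the maltase gene Mal-A1 by 1.29 ± 0.32, while the serine protease gene Jon99Ci changed by -1.75 ± 0.21 and Vha100-4, a subunit of the vacuolar proton pump, by -1.25 ± 0.18. With starvation 3 were higher and 1 lower. The trypsin gene alphaTry rose by 2.16 ± 0.20, Mal-A1 by 1.11 ± 0.32 and GATAe by 0.90 ± 0.21, while Jon99Ci changed by -1.21 ± 0.21. The starvation call of Mal-A1 was lost in 9 alternatives, among them the fits without starvation replicate 3 or any control array (0.62 to 1.21). Between WGA and starved midguts mex1 was higher by 0.89 ± 0.18, and alphaTry and Vha100-4 differed by -1.86 ± 0.20 and -1.20 ± 0.18. With the arrays' own scaling the last of these was not called.

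Of the 7 tested visceral muscle markers 1, Act87E, was called in each comparison. It rose by 0.78 ± 0.14 with WGA against control, differed by -0.52 ± 0.14 with starvation against control and stood 1.30 ± 0.14 above starved midguts with WGA. The starvation call was lost without starvation replicate 2 or 3 or control replicate 3 (-0.50 to -0.40), and the WGA call against control with median centring. Of 4 tested fat body markers the storage protein gene Lsp2 was called, higher with starvation by 1.88 ± 0.52, and the call was lost without starvation replicate 2 or 3 or control replicate 1 or 2 (1.39 to 1.78). Of 3 tested hemocyte markers the scavenger receptor gene crq was called, higher with starvation by 0.98 ± 0.19 and at -1.08 ± 0.19 in WGA against starved midguts, the second lost with the arrays' own scaling. None of the 3 tested trachea markers and not the 1 tested oenocyte marker was called in any of the 3 comparisons by limma at an adjusted p under 0.05.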
